A study of Mus musculus with 10 samples.

Results

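Lipid droplet proteins and lipases were followed as a group of 10 genes. They were taken from the count table by gene name and are Plin2, Plin4 and Plin5 (perilipins), Cidea, Cideb and Cidec (CIDE proteins), Pnpla2 with its inhibitor G0s2, and Fitm1 and Fitm2 (FIT proteins). The table listed 55421 gene identifiers, of which 22449 had at least 10 counts summed over the 10 livers and were tested. All 10 genes of the group were among those tested.

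RNA was sequenced from livers of male mice that had been injected with AAV8, a virus that reaches the liver, at 6 months of age and aged for a further 3 weeks. The H3.3 KO group (KO) held 4 C57BL/6 mice with floxed H3f3a and H3f3b (H3f3afl/fl_H3f3bfl/fl), which encode the histone variant H3.3, injected with AAV8 Tbg-Cre. Of the controls, 3 wildtype mice had the same virus (WT Cre), and 3 floxed mice had AAV8 Tbg-MCS, which lacks Cre (MCS). Tbg is a hepatocyte promoter, so that in the KO livers the other cell types of the liver were not targeted. The genotype field of the labels gives HIRA fl/fl for the floxed animals, whereas titles and series text give H3f3a and H3f3b, and the groups follow the titles. The WT Cre and MCS groups differ in genotype as well as in Cre, and these cannot be told apart in a comparison between them. The column names of the table tell control from KO, and only a library number ties a column to WT Cre or to MCS. Comparisons of KO with all 6 controls do not depend on that match.

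A lipid droplet is a store of triglyceride and sterol ester under a single layer of phospholipid, and the proteins on that layer set how fast the store is filled and emptied. Perilipins coat the droplet and hold lipases off or bring them to it, CIDE proteins help droplets to fuse and, in the hepatocyte, take part in loading lipoproteins with lipid, and FIT proteins act in the endoplasmic reticulum where droplets form. Pnpla2, also called ATGL, cuts the first fatty acid from triglyceride, with Abhd5 as its activator and G0s2 and Hilpda as inhibitors. Many of these genes are known targets of PPAR transcription factors and follow feeding and fasting.

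Library totals ran from 14998426 counts in KO 1 to 26096141 in MCS 1. Replicates of a group were distinct libraries, as pairs of them gave a chi-square of 10.3 to 96.7 per degree of freedom. The targeted genes were low in all 4 KO livers. H3f3a was at 25.7 to 30.6% of the control mean in them and H3f3b at 24.9 to 35.4%, while Hira was at 87.4 to 93.3%. Levels are given as CPM, that is counts relative to the TMM-scaled library total, a gene was called at an edgeR adjusted p under 0.05, and errors of log2 fold changes are standard errors (SE). In KO against all controls 19.7% of tested genes were called higher and 16.6% lower, so that 54.3% of the calls were higher. With library size as the only scaling this share was 72.2%, and the median over all tested genes moved from -0.00 to 0.17 (log2).

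The 3 genes of the group that were called lower in KO are Plin4, Plin5 and Cideb, and the sequence before a start site of each is shown for that reason. Plin4 (chr17:56100591-56109803) and Plin5 (chr17:56111601-56117596) are neighbours on the minus strand with 1797 bases between them, and Cideb lies at chr14:55754050-55758458, also on the minus strand (mm10, GENCODE M21). The windows are from RefSeq on GRCm38.p6, are written 5′ to 3′ on the minus strand, and stop where the gene models begin, at chr14:55758459-55758674 for Cideb (216 bases), chr17:56109804-56110032 for Plin4 (229 bases) and chr17:56117597-56117798 for Plin5 (202 bases). Capitals mark matches on either strand to the nuclear receptor half-site AGGTCA, to the CCAAT box, to the GC box with the letters GGGCGG, or to the TATA box with the letters TATAAA.
Cideb: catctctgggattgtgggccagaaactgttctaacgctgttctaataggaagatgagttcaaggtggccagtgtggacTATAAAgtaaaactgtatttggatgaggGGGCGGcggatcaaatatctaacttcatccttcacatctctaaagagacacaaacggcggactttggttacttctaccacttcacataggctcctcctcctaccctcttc
Plin4: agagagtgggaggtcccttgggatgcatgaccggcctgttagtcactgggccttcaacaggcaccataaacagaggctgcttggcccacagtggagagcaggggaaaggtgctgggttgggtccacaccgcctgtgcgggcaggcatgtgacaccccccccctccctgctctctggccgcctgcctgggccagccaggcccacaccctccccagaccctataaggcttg
Plin5: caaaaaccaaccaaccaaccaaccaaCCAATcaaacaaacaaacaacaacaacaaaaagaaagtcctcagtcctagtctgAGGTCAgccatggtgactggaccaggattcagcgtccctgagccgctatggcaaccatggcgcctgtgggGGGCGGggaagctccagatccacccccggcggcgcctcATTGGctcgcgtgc
Counting back from the RefSeq start, Cideb held TATAAA at 172 bases and GGGCGG at 144 bases. RefSeq gives Plin5 2 starts, and its window and distances are from the upstream start. Before that start Plin5 held CCAAT at 224 and 62 bases, AGGTCA at 170 bases and GGGCGG at 100 bases. Plin4 held CCAAT at 18 bases, in the part that is not shown, and no other of these motifs. RefSeq gave 11 start sites for the 9 genes of the group that were searched. Over the 250 bases before each start, AGGTCA was found for Plin2 and Plin5 and in 14.0% of all 32851 windows of that length. CCAAT was found for Plin2, Plin4 and Plin5 (33.8% of all windows), GGGCGG for Cideb, Fitm2, G0s2, Plin5 and Pnpla2 (32.7%) and TATAAA for Cideb (12.4%). The pair of half-sites spaced by 1 base that PPAR and RXR bind as a dimer, AGGTCANAGGTCA, was in none of the 11 windows and in 0.0335% of all windows. These are matches of letters, not binding sites.

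Per length of transcript, Plin2 was the most abundant of the group in control livers, at 192 ± 37.3 RPKM (SD, n = 6), which is CPM divided by the exon length in kilobases. G0s2 followed at 127 ± 49.4 RPKM (SD, n = 6), then Cideb at 58.8 ± 3.70 and Fitm1 at 48.2 ± 17.8 RPKM. Plin5 was at 26.0 ± 8.05, Pnpla2 at 23.7 ± 4.35 and Fitm2 at 15.6 ± 2.75 RPKM. The least abundant were Cidec at 7.70 ± 5.38, Plin4 at 2.34 ± 1.59 and Cidea at 0.346 ± 0.262 RPKM. Of the neighbours in this order, G0s2 and Cideb, Pnpla2 and Fitm2, and Plin4 and Cidea were apart by more than their SDs, and the other 6 pairs of neighbours were not. The place of Cideb depends on the measure. In the FPKM values deposited by the authors, the controls were at 156 to 191 for Cideb and at 67.3 to 187 for G0s2. The order thus ran from Plin2, the usual perilipin of the hepatocyte, to Cidea and Plin4, which are better known from fat and muscle.

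Loss of H3.3 was first compared with all 6 controls. Of the 10 genes, 3 were called lower (16.6% of all tested genes), 0 were called higher (19.7% of all tested genes) and 7 were not called. In the direction of higher levels, 0 genes of the group had an unadjusted p under 0.05 in edgeR, and DESeq2 and limma voom also called 0. The 3 that fell were the perilipins Plin4, known from fat and muscle, and Plin5, known from oxidative tissue, and Cideb, the CIDE gene of the hepatocyte. Plin4 alone also passed an absolute log2 fold change of 1, as 5.79% of all tested genes did in that direction. In these 3 every KO liver was below every control, which held for 12.0% of all tested genes. The median log2 fold change of the 10 genes was -0.56, against -0.00 over all genes tested. In bulk liver, fewer cells of a type and less RNA per cell cannot be told apart.

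**Figure D1:**
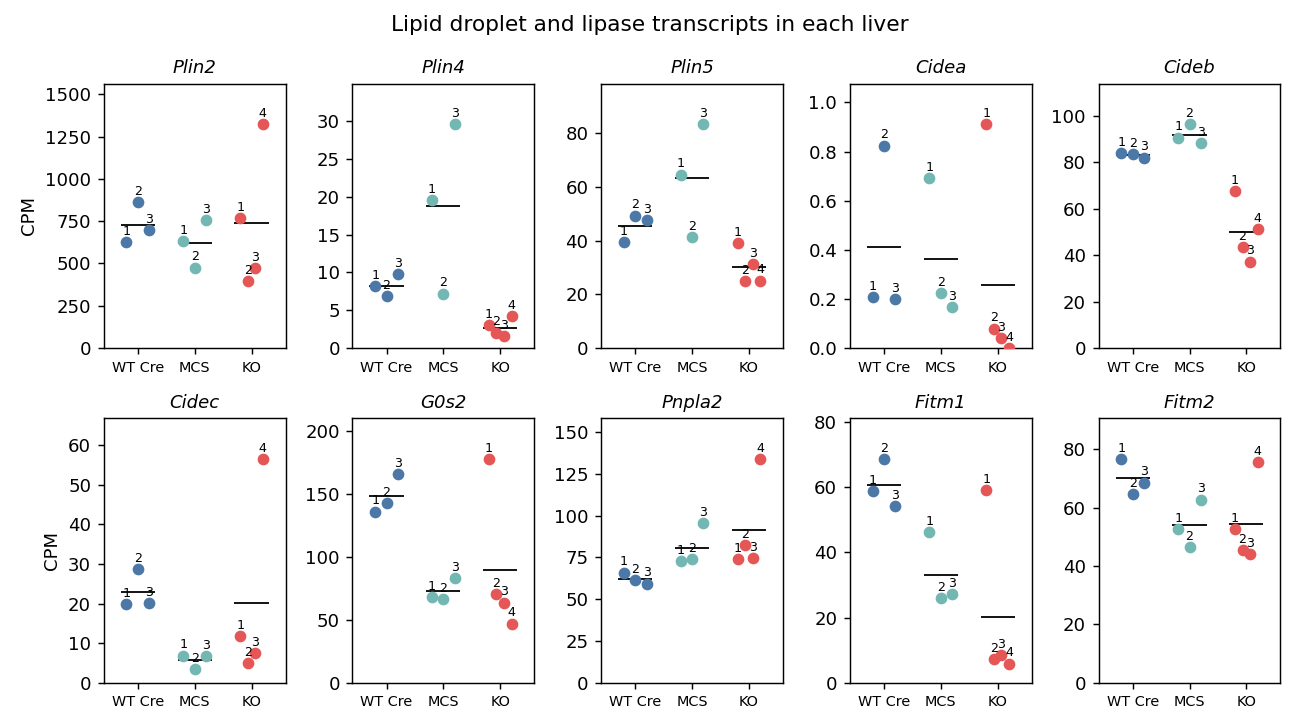
CPM of the 10 genes in each liver, with 1 panel per gene and a linear axis from 0. Points are single livers with their replicate number, and lines are group means. All 4 KO points lie below all 6 control points for Plin4, Plin5 and Cideb, while KO 1 stands apart for Fitm1, G0s2 and Cidea and KO 4 for Plin2, Cidec and Pnpla2.

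Plin2, the main coat protein of hepatocyte droplets, was not called, and its KO livers lay on both sides of the controls. It ran from 476 through a median of 663 to 862 CPM in the controls. In KO 1 to 4 it was at 769, 397, 472 and 1324 CPM. KO 4 was above every control, KO 2 and KO 3 were below every control, and KO 1 was among them. Against all controls the log2 difference was 0.14 ± 0.302 (edgeR adjusted p = 0.766), and it was -0.30 without KO 4.

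Plin4, which coats small droplets in fat and muscle, was the gene of the group with the lowest fold change. It was at 8.21, 6.85 and 9.73 CPM in WT Cre 1 to 3, and at 19.5, 7.19 and 29.6 CPM in MCS 1 to 3. In KO 1 to 4 it was at 3.00, 2.06, 1.60 and 4.21 CPM. The KO livers held 11.8 to 31.1% of the control mean and did not overlap with either kind of control. The controls themselves spread widely, with MCS 1 and MCS 3 above the other 4. Against all controls this came to a log2 fold change of -2.31 ± 0.532 (edgeR adjusted p = 0.00784). It was -2.78 ± 0.462 against MCS (edgeR adjusted p = 0.00180) and -1.61 ± 0.462 against WT Cre (edgeR adjusted p = 0.0282). The call against WT Cre was lost without any of WT Cre 1, WT Cre 2, WT Cre 3, KO 1, KO 2 or KO 3, with edgeR adjusted p from 0.0503 to 0.0901. It was also lost with limma voom (adjusted p = 0.0515), without the filter on low counts (edgeR adjusted p = 0.0872) and on the log2(FPKM + 1) scale (limma adjusted p = 0.0864). These levels rest on 38 to 529 counts per library.

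Plin5, which ties the droplet to mitochondria and holds Pnpla2 back, fell less. It was at 39.3, 49.3 and 47.7 CPM in WT Cre 1 to 3, and at 64.6, 41.4 and 83.4 CPM in MCS 1 to 3. In KO 1 to 4 it was at 39.2, 25.0, 31.3 and 25.1 CPM. KO 1 all but touched WT Cre 1, and in the deposited FPKM table KO 1 was at 16.6 and thus within the control range of 15.6 to 30.2. Plin5 changed by a log2 value of -0.85 ± 0.222 against all controls (edgeR adjusted p = 0.0112). It was -1.07 ± 0.223 against MCS (edgeR adjusted p = 0.00430). Against WT Cre the value was -0.60 ± 0.224 and not called (edgeR adjusted p = 0.0692), though it was called without KO 1, MCS 2 or MCS 3, with edgeR adjusted p from 0.0260 to 0.0390.

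Cideb, the CIDE protein of the hepatocyte, had the tightest controls. It was at 84.0, 83.5 and 82.1 CPM in WT Cre 1 to 3, and at 90.7, 96.6 and 88.4 CPM in MCS 1 to 3. In KO 1 to 4 it was at 67.6, 43.4, 37.3 and 51.3 CPM. The spread in the controls was 6.28% of their mean, and the KO livers held 42.6 to 77.3% of it, with KO 1 the nearest to the controls. In FPKM, KO 1 at 159 was just above MCS 3 at 156. Cideb changed by a log2 value of -0.81 ± 0.143 against all controls (edgeR adjusted p = 0.000756). It was -0.74 ± 0.162 against WT Cre (edgeR adjusted p = 0.00541) and -0.88 ± 0.162 against MCS (edgeR adjusted p = 0.00158). Cideb shares 1451 bases of its locus with Nop9, a nucleolar protein gene, and the strand setting of the counting is not stated. Nop9 was at 26.0 CPM in the controls and 27.0 CPM in KO and was not called (edgeR adjusted p = 0.697).

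Cidec, which enlarges droplets in fat and in fatty liver, differed more between the controls than between KO and controls. It was at 19.8, 28.6 and 20.2 CPM in WT Cre 1 to 3, at 6.88, 3.44 and 6.82 CPM in MCS 1 to 3, and at 11.8, 4.98, 7.46 and 56.5 CPM in KO 1 to 4. KO 4 was above every control, and the other 3 KO livers lay within the range of the controls. With all 4 KO livers the log2 value was 0.50 ± 0.818 (edgeR adjusted p = 0.680), and it was -0.84 without KO 4 (edgeR adjusted p = 0.422). RefSeq gives Cidec 2 start sites, and counts per gene do not tell them apart.

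Cidea, the CIDE gene of brown fat, was barely detected. It had 5, 19 and 5 counts in WT Cre 1 to 3, 17, 5 and 3 counts in MCS 1 to 3, and 14, 2, 1 and 0 counts in KO 1 to 4. Scaled to the library total, KO 1 was the highest of all and KO 2 to KO 4 were below all controls. Over all 4 KO livers the log2 value was -0.88 ± 0.927 (edgeR adjusted p = 0.502). KO 2 to KO 4 were at or under 3 counts each, so no fold between KO livers is given for Cidea. Fitted values and calls of Cidea without KO 1 rest on these few counts.

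Pnpla2 and G0s2, the triglyceride lipase and its inhibitor, were not called. Pnpla2 was at 65.9, 61.4 and 59.4 CPM in WT Cre 1 to 3, at 72.8, 74.1 and 95.5 CPM in MCS 1 to 3, and at 73.8, 82.2, 74.7 and 134 CPM in KO 1 to 4. All 4 KO livers were above WT Cre and overlapped with MCS. KO exceeded all controls by a log2 value of 0.35 ± 0.180 (edgeR adjusted p = 0.151), against WT Cre 0.55 ± 0.197 (edgeR adjusted p = 0.0555) and against MCS 0.17 ± 0.195 (edgeR adjusted p = 0.540). Pnpla2 was called higher than all controls with library size as the only scaling, at 0.55 (edgeR adjusted p = 0.0218), and in FPKM, at 0.53 on the log2(FPKM + 1) scale (limma adjusted p = 0.0441). Without KO 4 the value was 0.10 (edgeR adjusted p = 0.601).

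G0s2 was at 136, 143 and 166 CPM in WT Cre 1 to 3, at 68.4, 66.3 and 83.0 CPM in MCS 1 to 3, and at 178, 70.5, 63.7 and 47.1 CPM in KO 1 to 4. KO 1 was the highest of all libraries, while KO 2 to KO 4 lay near or below the MCS controls. Against all controls its log2 value was -0.30 ± 0.424 (edgeR adjusted p = 0.629). G0s2 lies wholly within the span of Lamb3, a laminin gene, which rose from 6.11 to 19.5 CPM (log2 fold change 1.67, edgeR adjusted p = 1.85e-05).

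Fitm1 and Fitm2, which act in the formation of droplets, were not called against all controls. Fitm1 was at 58.7, 68.7 and 54.1 CPM in WT Cre 1 to 3, at 46.1, 25.9 and 27.2 CPM in MCS 1 to 3, and at 59.0, 7.39, 8.43 and 5.89 CPM in KO 1 to 4. KO 2 to KO 4 were below every control and KO 1 was at the level of WT Cre. Over all 4 the log2 value was -1.23 ± 0.721 (edgeR adjusted p = 0.222), and limma voom called it lower, at -1.99 (limma voom adjusted p = 0.0260). Fitm1 shares 375 bases with Gm15932, which was at 1.26 CPM in the controls and 0.850 CPM in KO.

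Fitm2, the member found in most tissues, was at 76.8, 64.8 and 68.6 CPM in WT Cre 1 to 3, at 52.6, 46.6 and 62.8 CPM in MCS 1 to 3, and at 52.7, 45.4, 44.0 and 75.7 CPM in KO 1 to 4. KO 1 to KO 3 were below WT Cre and near MCS, and KO 4 was at the level of WT Cre. Fitm2 in KO differed from all controls by a log2 value of -0.19 ± 0.170 (edgeR adjusted p = 0.426).

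**Figure D2:**
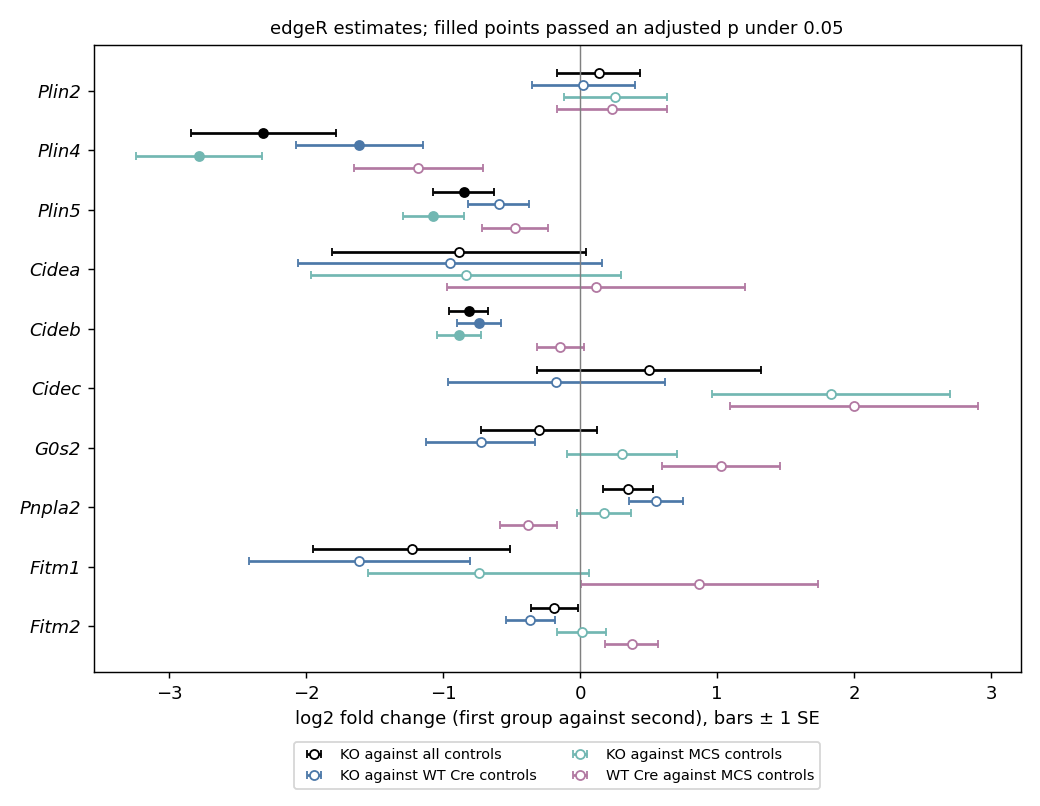
log2 fold changes of the 10 genes from edgeR in the 4 comparisons, with bars of 1 SE on a linear axis and filled points where the adjusted p was under 0.05. Plin4 and Cideb have 3 filled points each on the lower side, Plin5 has 2, and every point of WT Cre against MCS is open.

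The kind of control changed which of these genes were called, and the comparisons share the KO livers. Against WT Cre, 2 of the 10 genes were called lower, Plin4 and Cideb (13.1% of all tested genes), and 0 higher (15.3%), with 1 gene, Pnpla2, higher at an unadjusted p under 0.05 in edgeR. DESeq2 called Pnpla2 higher there and limma voom called 0 genes of the group higher. Against MCS, 3 were called lower, Plin4, Plin5 and Cideb (14.8% of all tested genes), and 0 higher (17.3%). At an unadjusted p under 0.05, 0 were higher than in MCS, and DESeq2 and limma voom also called 0. For G0s2, Cidec and Fitm2 the fitted value was negative against WT Cre and positive against MCS, and none of these values was called.

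KO 1 and KO 4 stood apart from the other KO livers in different genes. In KO 1, Fitm1 was 8.16 times and G0s2 2.95 times the mean of the other 3 KO livers, and Cideb was 1.54 times and Plin5 1.44 times that mean. In KO 4, Cidec was 7.00 times, Plin2 2.43 times, Plin4 1.90 times, Pnpla2 1.74 times and Fitm2 1.60 times the mean of KO 1 to KO 3. Hilpda, the other inhibitor of Pnpla2, was also highest in KO 4, at 8.07 CPM against 3.19 to 3.71 CPM in KO 1 to KO 3. Plin4, Plin5 and Cideb were still below every control in KO 1 and in KO 4.

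**Figure D3:**
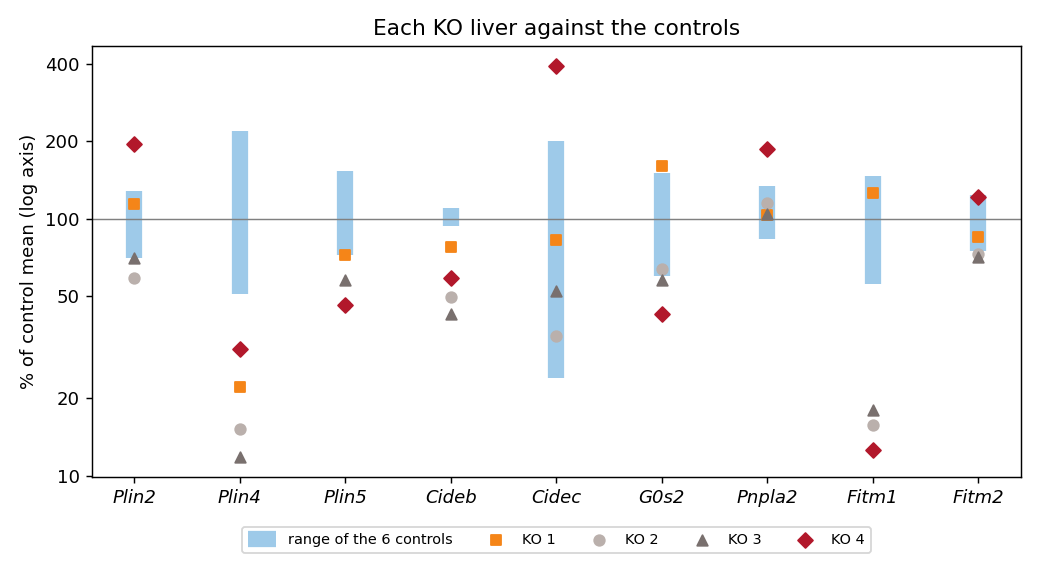
Each KO liver as a percentage of the control mean on a log axis, for 9 genes (Cidea is left out for its low counts). Bars are the range of the 6 controls. KO 1 lies inside the control bar for Fitm1, where the other 3 KO livers lie far below it, and KO 4 is at 395% for Cidec and 196% for Plin2.

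Without KO 1, 5 genes of the group were called lower than all controls, against 18.9% of all tested genes. Fitm1 and Cidea were added to Plin4, Plin5 and Cideb, with Fitm1 then at a log2 value of -2.69 (edgeR adjusted p = 0.000501). KO 1 was set apart for its high Fitm1, G0s2 and Cidea. Calls of these genes without it describe the remaining livers and are no independent support for a fall. Against WT Cre without KO 1, 5 genes were called lower (17.4% of all tested genes), namely Cidea, Cideb, Fitm1, G0s2 and Plin5, and Pnpla2 was called higher, at 0.64 (edgeR adjusted p = 0.0308). G0s2 was then at -1.30 (edgeR adjusted p = 3.19e-05), while against MCS it was at -0.26 and not called (edgeR adjusted p = 0.181). Against MCS without KO 1, 5 genes were called lower (18.7% of all tested genes), the same as against all controls, with Fitm1 at -2.19 (edgeR adjusted p = 6.66e-05).

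Without KO 4, 3 genes were called lower than all controls, again Plin4, Plin5 and Cideb (14.1% of all tested genes). Against WT Cre without KO 4, 4 genes were called lower (12.2% of all tested genes). These were Plin4 and Cideb with Cidec, at -1.52 (edgeR adjusted p = 0.0140), and Fitm2, at -0.57 (edgeR adjusted p = 0.00760). As KO 4 was set apart for its high Cidec and Fitm2, among others, these calls are no independent support either.

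Markers of other cells moved with these livers. Their calls are for KO against all controls, where 19.7% of all tested genes were called higher and 16.6% lower. The summed level of 8 Kupffer cell and macrophage markers was 152 to 295 CPM in the controls and 344 to 774 CPM in KO, lowest in KO 1 and highest in KO 4, and all 8 were called higher. Of 10 stellate cell markers 9 were called higher, with a sum of 222 to 265 CPM in the controls and 421 to 599 CPM in KO, again lowest in KO 1 and highest in KO 4. Of 6 lipid-associated macrophage markers 4 were called higher and 1 lower (69.4 to 119 CPM in the controls, 114 to 162 CPM in KO), and of 6 endothelial markers 1 was called higher (161 to 204 and 178 to 321 CPM). Their part in the levels of Plin2, Cidec, Pnpla2 and Fitm1 was not tested.

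The labelled tissue was plain in the hepatocyte markers, with Alb at 83710 to 118201 CPM in the controls and 61393 to 75941 CPM in KO. Of 9 hepatocyte markers 2 were called higher, Hpx and Trf, and 5 lower, Alb among them. The summed level of all 9 was 127309 to 175469 CPM in the controls and 129536 to 141962 CPM in KO, and thus overlapped. Plin4, Cidea, Cidec and Fitm1 are also expressed in fat and muscle, and markers of these tissues were read for that reason. Among the white adipocyte markers, Lep was at 0 in every library, and Plin1, the perilipin of the fat cell, reached 2 counts and Adipoq 3 counts at most. Of the 8 on that list 2 were called higher. These were Fabp4 and Slc2a4, an insulin-responsive glucose transporter that went from 0.749 to 9.57 CPM (log2 fold change 3.66, edgeR adjusted p = 1.37e-06). The sum of the list was 9.33 to 22.7 CPM in the controls and 26.4 to 34.3 CPM in KO. Of the 5 brown adipocyte markers Ucp1 reached 2 counts at most and Otop1 was at 0, while Cox7a1, a mitochondrial subunit, was called higher, from 1.27 to 2.58 CPM (log2 fold change 1.03, edgeR adjusted p = 0.00346), and Elovl3 lower. The sum of that list, 291 to 664 CPM in the controls and 22.1 to 42.4 CPM in KO, was almost all Elovl3, which hepatocytes also express. Of the 7 skeletal muscle markers 2 were called higher and 1 lower, with a sum of 0.503 to 1.59 CPM in the controls and 0.847 to 4.07 CPM in KO. Ckm, the muscle creatine kinase, was at 0 to 0.134 CPM in the controls and 0.326 to 1.74 CPM in KO (edgeR adjusted p = 0.000312). Acta1, the skeletal muscle actin, was at 0 to 0.130 CPM in the controls and 0.130 to 0.870 CPM in KO (edgeR adjusted p = 0.00913). Mylpf, a myosin light chain, was the gene called lower (edgeR adjusted p = 0.00178). For Slc2a4, Cox7a1, Ckm and Acta1 every KO liver was above every control, for Acta1 by less than the rounding shown. The part of fat and muscle markers in the levels of Plin4, Cidea, Cidec and Fitm1 was not tested.

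The 2 kinds of control were compared with each other to see how far these genes move without loss of H3.3. In WT Cre against MCS, 0 of the 10 genes were called in edgeR, against 0.927% of all tested genes, and DESeq2 and limma voom also called 0. At an unadjusted p under 0.05 there were 2, G0s2 with a log2 fold change of 1.03 ± 0.431 and Plin4 with -1.18 ± 0.471. G0s2, Cidec, Fitm1 and Fitm2 were higher in every WT Cre liver than in every MCS liver, which held for 11.0% of all tested genes. Cideb and Pnpla2 were lower in every WT Cre liver, which held for 11.2% of all tested genes. Cidec was at 22.9 ± 4.99 CPM in WT Cre and 5.71 ± 1.97 CPM in MCS (SD, n = 3 each), a log2 difference of 2.00 ± 0.905 (edgeR adjusted p = 0.492). The fit takes its spread from all 3 groups, so that KO 1 and KO 4 widen it. Without KO 1, G0s2 was called, at 1.03 (edgeR adjusted p = 0.00298), and 2.33% of all tested genes were. Without KO 4, Cidec was called, at 2.01 (edgeR adjusted p = 0.0332), and 1.59% of all tested genes were. KO 1 and KO 4 had been picked out on these same genes.

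Shares within a family were taken per length. Plin2 made up 78.5 to 86.9% of the summed RPKM of Plin2, Plin3, Plin4 and Plin5 in the controls and 77.3 to 90.5% in KO. Plin4 made up 0.420 to 1.87% in the controls and 0.159 to 0.245% in KO. Plin5 went from 8.36 to 14.6% in the controls to 2.89 to 8.62% in KO, with the lowest share in KO 4. Plin3, which binds small new droplets, made up 4.34 to 7.37% in the controls and 6.41 to 14.0% in KO. Among the CIDE genes, Cideb made up 77.7 to 96.9% in the controls and 53.1 to 91.4% in KO. The lowest of these was KO 4, where Cidec reached 46.9% of the sum. That share depends on the measure. In KO 4 Cidec and Cideb were at 30.4 and 34.5 RPKM, but at 40.3 and 114 in the deposited FPKM.

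**Figure D4:**
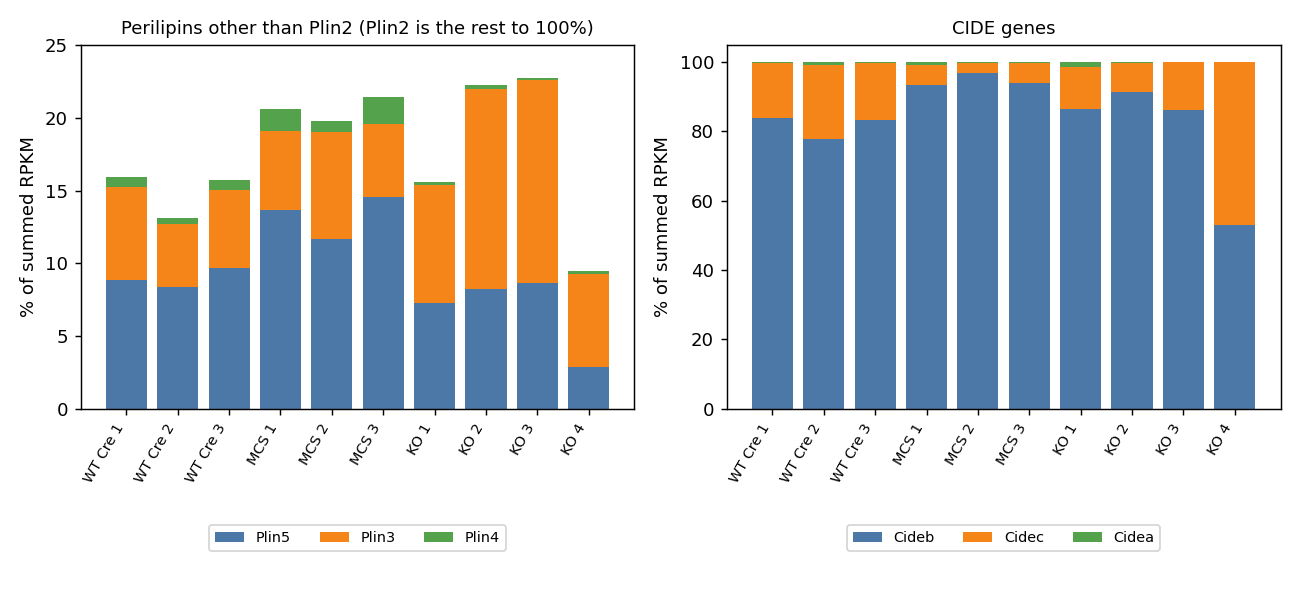
Shares of the summed RPKM within the perilipins (left, the parts other than Plin2) and the CIDE genes (right) in each liver, as stacked bars from 0. The Plin4 share is at or below 0.245% in all KO livers, and KO 4 has a Plin5 share of 2.89% and a Cidec share of 46.9%. In the deposited FPKM Cidec stands further below Cideb in KO 4 (40.3 against 114).

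Ratios between partners were tested for 5 pairs by a two-sided exact permutation test over the 210 splits of 4 KO and 6 control livers, and none passed. The log2 ratio of G0s2 to Pnpla2 was 1.04 to 1.49 in WT Cre and -0.20 to -0.09 in MCS, and 1.27, -0.22, -0.23 and -1.50 in KO 1 to 4. In raw counts, which are not scaled for length, G0s2 thus exceeded Pnpla2 in WT Cre and KO 1 and was below it in the other livers. In RPKM G0s2 was above Pnpla2 in every liver, also in KO 4 (54.1 against 44.4 RPKM). In the deposited FPKM the order in KO 4 was the reverse, with G0s2 at 59.0 and Pnpla2 at 68.2. For the log2 ratio of G0s2 to Pnpla2 the KO mean minus the control mean was -0.72 (exact permutation p = 0.233, adjusted p = 0.281 over the 5 ratios). That of Plin2 to Plin5 was 0.82 (exact permutation p = 0.0524, adjusted p = 0.262), and that of Cidec to Cideb was 1.02 (exact permutation p = 0.281, adjusted p = 0.281). For Hilpda to Pnpla2 it was 0.34 (exact permutation p = 0.110, adjusted p = 0.274), and for Abhd5 to Pnpla2 it was 0.29 (exact permutation p = 0.248, adjusted p = 0.281).

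Other genes of droplet turnover were taken from 6 lists and are given for KO against all controls. The counts of each list stand beside 19.7% of all tested genes called higher and 16.6% called lower. Of 16 other lipases and their regulators 6 were called higher and 3 lower, with a median log2 fold change of 0.24 against -0.00 over all genes. Abhd5, the activator of Pnpla2, was at 25.7 to 32.1 CPM in the controls and at 41.4, 43.5, 44.0 and 40.8 CPM in KO 1 to 4. It rose by a log2 fold change of 0.61 (edgeR adjusted p = 0.000156). Hilpda rose by 0.77 (edgeR adjusted p = 0.0239), which was lost without KO 4, at 0.35 (edgeR adjusted p = 0.114), and without MCS 1, at 0.74 (edgeR adjusted p = 0.0502). Lipe, the hormone-sensitive lipase, rose by 0.40 (edgeR adjusted p = 0.0143). Lpl, the lipase of the capillary wall that macrophages also make, rose by 2.28 (edgeR adjusted p = 0.000219). Mgll, which frees the last fatty acid, went from 237 to 125 CPM (log2 fold change -0.92, edgeR adjusted p = 0.000264), and Aadac, a lipase of the hepatocyte endoplasmic reticulum, from 672 to 287 CPM (-1.23, edgeR adjusted p = 0.000631). Pnpla3 was not called, at 0.65 (edgeR adjusted p = 0.320).

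Of 22 tested of 24 other coat and biogenesis genes, 5 were called higher and 5 lower, with a median log2 fold change of -0.02. Plin3 was at 46.3 to 51.5 CPM in the controls and at 80.4, 76.1, 91.9 and 101 CPM in KO 1 to 4, and rose by a log2 fold change of 0.85 (edgeR adjusted p = 2.85e-05). It was the perilipin that was called higher, and its groups did not overlap. Acsl4, an acyl-CoA synthetase, and Mettl7a1, a methyltransferase-like droplet protein, also rose, by 1.71 (edgeR adjusted p = 0.00954) and 1.04 (edgeR adjusted p = 1.83e-05). Bscl2, or seipin, which shapes new droplets, had a log2 fold change of -0.42 (edgeR adjusted p = 0.0117), Spg20 was at -0.80 (edgeR adjusted p = 0.000237) and Vps13c, a lipid transfer protein, at -0.44 (edgeR adjusted p = 0.0164). The calls of Bscl2 and Vps13c were each lost in 4 of 19 alternatives. With library size as the only scaling Bscl2 was at -0.25 (edgeR adjusted p = 0.135) and Vps13c at -0.26 (edgeR adjusted p = 0.146). On the log2(FPKM + 1) scale they were at -0.22 (limma adjusted p = 0.225) and -0.34 (limma adjusted p = 0.0590).

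Of 18 genes of triglyceride and sterol ester synthesis 5 were called higher and 3 lower, with a median log2 fold change of -0.07. Dgat2, which makes most triglyceride in the hepatocyte, was at 536 CPM in the controls and 478 CPM in KO and was not called (edgeR adjusted p = 0.320). Dgat1 was called at -0.30 (edgeR adjusted p = 0.0310), a call that was lost in 11 of 19 alternatives, 6 of them with a library left out, and Agpat3 at -0.48 (edgeR adjusted p = 0.00279). The highest were Mogat2, from 0.219 to 1.54 CPM (log2 fold change 2.75, edgeR adjusted p = 0.000242), and Soat1, which esterifies cholesterol and is known from macrophages, from 4.12 to 12.9 CPM (1.66, edgeR adjusted p = 4.87e-05).

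Of 15 transcription factors known to act on droplet genes 1 was called higher and 5 lower, with a median log2 fold change of -0.27. Pparg, a nuclear receptor whose known targets include Cidec and Plin4, was at 18.3, 17.5 and 15.9 CPM in WT Cre 1 to 3, at 7.29, 6.92 and 4.86 CPM in MCS 1 to 3, and at 6.06, 1.38, 1.47 and 1.72 CPM in KO 1 to 4. WT Cre was highest, MCS in between, and KO 1 stood with MCS. Pparg fell by 2.21 on the log2 scale against all controls (edgeR adjusted p = 0.0154), and without KO 4 the value was -2.06 and not called (edgeR adjusted p = 0.0576). Ppara, the fatty acid receptor of the hepatocyte, was called at -0.39 (edgeR adjusted p = 0.0488), a call that was lost in 15 of 19 alternatives. Ppargc1a, a coactivator of both, went from 8.18 to 4.11 CPM (edgeR adjusted p = 0.000802), and Ppard was the gene called higher, at 0.68 (edgeR adjusted p = 0.00253).

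Feeding state moves many of these genes, and lists for it were read for that reason. Of 16 fasting-responsive genes 3 were called higher and 7 lower (median log2 fold change -0.46), and of 10 feeding-responsive genes 1 was called higher and 4 lower (median -0.44). At the ends of the fasting list stood Acot2, a mitochondrial thioesterase, at 3.40 (edgeR adjusted p = 9.32e-05) and Cyp4a10 at 0.94 (edgeR adjusted p = 0.0227), and Fgf21, a liver hormone, at -3.49 (edgeR adjusted p = 0.00410) and Vnn1 at -2.89 (edgeR adjusted p = 0.0300). Acot2 and Cyp4a10 have close paralogues between which reads may be split. On the feeding list Acaca, which makes malonyl-CoA, was at 0.72 (edgeR adjusted p = 0.00133), Pklr at -1.51 (edgeR adjusted p = 0.00212) and Me1 at -1.37 (edgeR adjusted p = 0.0311). The call of Me1 was lost in 9 of 19 alternatives, that of Vnn1 in 6, and that of Cyp4a10 in 2, without KO 1 among them, at 0.66 (edgeR adjusted p = 0.0781). The lists thus held calls in both directions, and their part in the levels of the 10 genes was not tested.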

How the data were processed

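Poly(A) RNA from 10 mouse livers was sequenced from directional libraries, and the replicates are taken as separate mice, as the series text counts them. The authors aligned reads to mm10 with STAR and deposited raw counts per gene. Their methods name HOMER for counting, whereas the submitters' processing notes list HTSeq and Cufflinks, and the strand setting is not given in the sources used here. The authors also deposited FPKM values per gene, whose tool is not stated, and 1 blank cell of the 10 genes (Cidea in KO 4) was read as 0. FPKM was used only as an alternative.

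Genes with at least 10 summed counts were tested with edgeR 4.0.16 (R 4.3.3), by the robust quasi-likelihood F test with TMM scaling, two-sided, with Benjamini-Hochberg adjustment over all genes tested. KO was compared with all controls in a fit of 2 groups, and the other 3 comparisons came from a fit of 3 groups. SE was derived from each log2 fold change and its F statistic. For ratios 0.5 was added to both counts, and 210 splits allow no p under 0.00476. Alternatives used DESeq2 1.42.0, limma 3.58.1, other scalings and filters, the FPKM values (pseudocounts 1 and 0.1), a replicate block, and each library left out in turn. Procedures were also run on simulated counts with known changes, and the outcome is not reported here. No simulated liver was made to stand apart as KO 1 and KO 4 did. RPKM used exon lengths from GENCODE M21. Total counts were 14998426 to 26096141 per library. The SEs and tests take in the spread between livers as well as counting error.

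The 10 genes, the 6 pathway lists and the marker lists were chosen with earlier results of these data known. Beside the 10 genes, the text names 13 related genes given by a rule (Plin1, Plin3, Abhd5, Hilpda, Lipe, Mgll, Pnpla3, Lpl, Bscl2, Dgat1, Dgat2, Ppara and Pparg), the 2 highest and 2 lowest called genes of each list, and markers and overlapping genes where a value turns on them.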

Additional observations from a re-analysis of the deposited data

Results flagged for a closer look

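The highest or lowest liver of a group stood apart from its fellows by more than the 95% limit of Dixon's test in 5 of 30 groups checked, where chance flags about 1 in 20 groups. All 5 were KO livers. In KO 1, Cidea was at 0.912 CPM (14 counts), with the next KO liver at 0.0791 CPM, and Fitm1 was at 59.0 CPM, with the next at 8.43 CPM. In KO 4, Cidec was at 56.5 CPM, with the next at 11.8 CPM, and Pnpla2 was at 134 CPM, with the next at 82.2 CPM. The log2 ratio of Abhd5 to Pnpla2 was lowest in KO 4, at -1.71, with the next at -0.92. This flag and that of Pnpla2 share the Pnpla2 counts of KO 4. Fitm1 and Cidec in the remaining livers are given without these libraries in the report.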

How the results depend on the processing

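Plin4, Plin5 and Cideb were called lower in KO than in all controls, and than in MCS, under all 19 alternatives. With a library left out, 3 to 5 genes were called lower than all controls, as were 2739 to 4205 of all tested genes. Pnpla2 made the number called higher than all controls 1 with library size only, log2(FPKM + 1) and log2(FPKM + 0.1). Of all tested genes 4718 to 5635 were called higher there. Against WT Cre Pnpla2 made it 1 with library size only, filterByExpr and DESeq2 (3398 to 4006 of all tested genes). With a library left out it was 0 to 1 there (2317 to 4330 of all tested genes). The number called lower than WT Cre was 1 without the filter on low counts (2582 tested genes) and with log2(FPKM + 1) (2072). It was 1 to 5 with a library left out (1949 to 3857 of all tested genes). It stayed at 2 with limma voom (3211 of all tested genes), which called Cideb and Fitm1 and not Plin4. Against MCS it was 3 to 5 with a library left out (2248 to 4142 of all tested genes). In WT Cre against MCS the number called higher was 0 to 1 with a library left out (38 to 250 of all tested genes). The causes were not tested.

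Replicate number 4 occurs only in KO, so a replicate block takes up KO 4. Same-numbered livers did not deviate together (r from -0.0387 to 0.111, with 1 of 9 pairs over 0.1), so the numbers were not taken as pairs. With the replicate block 4 genes were called lower than WT Cre, namely Cideb, Cidec, Fitm2 and Plin4, against 2586 of all 22449 tested genes. Against all controls the calls of Hilpda, Bscl2, Vps13c, Acsl4, Dgat1, Pparg, Ppara, Vnn1 and Me1 were lost under it, with edgeR adjusted p from 0.0531 for Bscl2 to 0.157 for Hilpda. Uncalled values changed sign under it for Plin2 (-0.337 against all controls, -0.466 against WT Cre, -0.201 against MCS), Cidec (-0.869 against all controls), and Pnpla2 (-0.0663) and Fitm2 (-0.186) against MCS.

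With a library left out, log2 values of either sign were found for Plin2 against all controls (-0.302 to 0.357), WT Cre (-0.419 to 0.240) and MCS (-0.175 to 0.485), and for Cidec against all controls (-0.843 to 0.840) and WT Cre (-1.52 to 0.164). The same held against MCS for G0s2 (-0.264 to 0.533), Pnpla2 (-0.0654 to 0.310) and Fitm2 (-0.183 to 0.134). Fitted values of Cidea, which rest on a few counts, ran from -3.18 to 0.0361 against WT Cre, from -3.07 to 0.0726 against MCS and from -0.861 to 1.02 between the controls. Of these, Cidec against WT Cre without KO 4 and Cidea without KO 1 were called. Limma voom gave -0.00450 for Plin2 against all controls, -0.127 for Plin2 against WT Cre and -0.00933 for Fitm2 against MCS. Dgat2 was at 0.0135 with library size only and at 0.0207 and 0.0208 in log2(FPKM + 1) and log2(FPKM + 0.1), where Cideb in WT Cre against MCS was at 0.0585 and 0.0588. The log2 ratio of Cidec to Cideb was -0.0699 against WT Cre alone.

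Depth limits Cidea, with 0 to 19 counts. DESeq2 gave no adjusted p for Fitm1 in the comparisons with each kind of control, and filterByExpr removed Cidea from that with all controls.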
